A study of Mus musculus with 9 samples.

Results

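The genes of cholesterol and fatty acid synthesis were followed in Neuro2a cells after knockdown of Myt1 or of LSD1. The set was chosen by symbol, with earlier results of these data known. It covers the regulators and enzymes of these pathways together with genes of sterol transport and storage. It holds 40 genes, of which 37 had a probe set with a single gene symbol among the 18193 genes named on the array. Nr1h2, Acat2 and Soat1 had none and are not analysed here.

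Cells make cholesterol from acetyl-CoA through the mevalonate pathway, whose products also feed ubiquinone, dolichol and protein prenylation. The SREBP transcription factors, encoded by Srebf1 and Srebf2, sit in the endoplasmic reticulum bound to the escort protein SCAP. When sterols are low, SCAP carries them to the Golgi, where proteases release the active factor, and when sterols are high the INSIG proteins hold the complex back. SREBP-2 is known mainly for driving sterol genes and SREBP-1 for driving fatty acid genes. Liver X receptors act on the other side, where oxysterols switch on export genes such as Abca1 and Abcg1. Neurons and their progenitors depend on local sterol synthesis for membranes, axons and synapses.

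Neuro2a is a mouse neuroblastoma cell line. Cells had been treated for 48 h with siMyT1, with siLSD1 or with siControl, and 3 arrays were made of each group, 9 in all. All arrays thus come from 1 line. Nothing in the labels states that replicates were grown as separate cultures, and the p-values cover the spread among these arrays alone, which may be technical. In bulk RNA such as this, fewer cells of a kind and less RNA per cell cannot be told apart. Levels are given in the authors' deposited intensity units, which are linear and whose scaling is unknown. Fold changes are differences of log2(intensity + pseudocount), with the pseudocount equal to 0.196 deposited units, so changes of dim genes are understated. A gene was called when its limma p-value, adjusted over all 18193 genes, fell below 0.05. Array sums ran from 196271 to 219953 units. Myt1 averaged 0.660 ± 0.207 units in siMyT1 and 4.90 ± 0.342 units in siControl (SD, n = 3 each), or 13.5%. In siLSD1 Myt1 averaged 6.95 ± 0.724 units, or 142% of siControl. Its siLSD1 arrays lay above those of siControl, but it was not called (log2 fold change 0.49, limma adjusted p = 0.0643). Kdm1a, the gene of LSD1, averaged 4.49 ± 0.395 units in siLSD1 and 29.0 ± 1.02 units in siControl, or 15.5%. Of 13 measured markers of the sympathoadrenal and neuroblastoma lineage, 11 lay above the median level of all genes, as did 1 of 8 fibroblast markers, 1 of 6 glial markers and 0 of 6 macrophage and lymphocyte markers. The lineage markers summed to 207 to 218 units in siMyT1, 280 to 316 units in siLSD1 and 259 to 281 units in siControl, and 6 of 13 were called lower in siMyT1 than in siControl, against 2.29% of all genes. In siLSD1, 4 of 13 were called higher than in siControl (3.97% of all genes) and 1 lower, and 8 of 13 were lower in siMyT1 than in siLSD1 (5.58% of all genes). The part of these shifts in the results was not tested.

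In siMyT1 the regulator Srebf2 and 5 of 17 measured mevalonate and sterol enzymes were lower than in siControl, and 1 fatty acid enzyme was lower too. Srebf2, Pmvk, Idi1, Fdft1, Cyp51, Dhcr7 and Elovl6 fell, and Npc2 rose. In count this was 7 of 37 genes lower (18.9%), against 2.29% of all genes, and 1 of 37 higher (2.70%), against 5.12% of all genes. The median log2 fold change of the 37 genes was -0.20, and that of all genes was 0.05. On 20 of the 37 genes all siMyT1 arrays lay below all siControl arrays, where 7.55% of all genes did so, and on 3 of 37 they lay above, where 16.5% of all genes did so.

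The 37 genes are brighter than most, with 34 of them above the median level. In a fit of the 9096 genes above that level, 12 of the 34 were lower in siMyT1, against 6.55% of those genes. The count of 7 lower genes was 20 after quantile normalization, 4 with the mean of all probe sets of a gene and 3 without an intensity trend in the variance. Quantile normalization also changed the shares of all genes, to 6% lower and 7.52% higher, and median centring gave 2.75% and 3.64%. The share of all genes lower was 1.34% with the mean of all probe sets and 1.11% without an intensity trend. The count of 7 was 4 without siControl replicate 1, siMyT1 replicate 1 or siMyT1 replicate 2, and 3 without siControl replicate 3. In that order, the shares of all genes lower were 1.18%, 1.52%, 1.52% and 1.72%. siMyT1 replicate 1 was the lowest of its group for 26 of the 37 genes and for 62.7% of all genes. siControl replicate 2 was the highest of its group for 28 of the 37 and for 53.2% of all genes. The 1 higher gene became 0 without siControl replicate 1 (2.4% of all genes higher) and 2 without siMyT1 replicate 1 (6.45%).

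**Figure D1:**
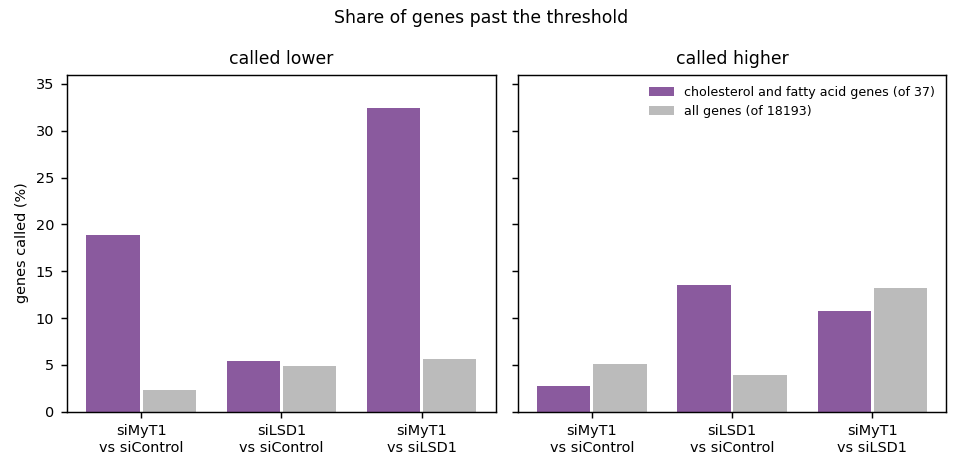
Percentage of genes called lower (left panel) and higher (right panel) in each of the 3 comparisons, for the 37 cholesterol and fatty acid genes (purple) and all 18193 genes (grey). The share called lower was 18.9% against 2.29% in siMyT1 against siControl and 32.4% against 5.58% in siMyT1 against siLSD1, and the shares called higher in siMyT1 against siLSD1 were 10.8% and 13.2%.

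Among the regulators, Srebf2 fell. It encodes SREBP-2. On the siMyT1 arrays Srebf2 had 9.40, 8.48 and 9.91 units, on the siLSD1 arrays 19.2, 13.4 and 18.3 units and on the siControl arrays 16.2, 18.8 and 14.9 units. The siMyT1 arrays lay below all others, and the siLSD1 and siControl arrays overlapped. The mean in siMyT1 was 55.6% of that in siControl (log2 fold change -0.83, SE 0.12, adjusted p = 0.00134). Its other probe set showed the same direction, at 6.57 ± 0.50 units in siMyT1, 14.6 ± 0.98 in siLSD1 and 12.6 ± 1.1 in siControl (SD, n = 3 each; log2 fold change -0.92 against siControl, limma adjusted p = 0.000113 over all probe sets). The Srebf2 call held under all 16 alternatives in siMyT1 against siControl, with log2 fold changes from -0.91 to -0.74.

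The other 5 measured regulators were not called in this comparison. Srebf1, which encodes SREBP-1, averaged 25.7 ± 1.4 units in siMyT1 and 29.0 ± 0.99 units in siControl (SD, n = 3 each; log2 fold change -0.17, adjusted p = 0.216), with no overlap. Scap, the escort protein, had a log2 fold change of 0.19, Insig1 and Insig2, the retention proteins, of -0.02 and -0.13, and Mylip, a ubiquitin ligase that degrades lipoprotein receptors, of -0.28. Their adjusted p-values were 0.142 or more. For Insig1, a well known SREBP target, the 95% confidence interval of the log2 difference ran from -0.25 to 0.22.

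Of 6 measured early mevalonate enzymes, Idi1 and Pmvk fell in siMyT1, against 2.29% of all genes, and 0 rose. Idi1, the isomerase that makes dimethylallyl diphosphate, is the gene of the set that fell after both siRNAs. Its intensity was 6.62, 6.38 and 6.54 units in siMyT1, 4.54, 3.46 and 4.24 units in siLSD1 and 9.61, 10.2 and 9.55 units in siControl. The 3 groups did not overlap, with siMyT1 in the middle. Against siControl, siMyT1 reached 66.6% (log2 fold change -0.57, SE 0.09, adjusted p = 0.00189). The other Idi1 probe set gave the same order, 1.54 ± 0.21 units in siMyT1, 1.13 ± 0.08 in siLSD1 and 2.86 ± 0.35 in siControl (SD, n = 3 each). Pmvk makes mevalonate diphosphate. The Pmvk probe set gave 3.00, 3.93 and 3.21 units in siMyT1, 5.21, 4.55 and 4.98 units in siLSD1 and 4.69, 4.38 and 4.55 units in siControl. Its siMyT1 arrays lay below all others, at 74.4% of siControl (log2 fold change -0.41, SE 0.10, adjusted p = 0.0241), but the call was lost when siMyT1 replicate 1 or 3 or siControl replicate 1 or 3 was left out (adjusted p up to 0.0961), and without an intensity trend.

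The remaining early enzymes were not called in siMyT1. Hmgcs1, HMG-CoA synthase, had 15.1, 15.7 and 17.8 units on the siMyT1 arrays and 18.5, 19.2 and 21.6 units on the siControl arrays. These groups did not overlap, but the difference missed the threshold (log2 fold change -0.28, SE 0.11, adjusted p = 0.135). Of its 4 other probe sets, 2 were called lower in a fit over all probe sets, with log2 fold changes below 0, of -0.43 (adjusted p = 0.0154) and -0.38 (adjusted p = 0.00815). Mvd, mevalonate diphosphate decarboxylase, had a log2 fold change of -0.21, Mvk, mevalonate kinase, of -0.17 and Fdps, farnesyl diphosphate synthase, of 0.04. The 95% confidence interval of the Fdps difference ran from -0.15 to 0.22.

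In the sterol branch, Fdft1, Cyp51 and Dhcr7 fell among 11 enzymes, against 2.29% of all genes, and 0 rose. Of the 11, 10 had log2 fold changes below 0, where the median of all genes was 0.05. Fdft1, squalene synthase, commits farnesyl diphosphate to sterols. Fdft1 measured 9.78, 9.72 and 12.04 units on the siMyT1 arrays, 12.8, 11.4 and 12.2 units on the siLSD1 arrays and 12.5, 13.9 and 13.8 units on the siControl arrays. siMyT1 lay below siControl on all arrays (log2 fold change -0.35, SE 0.09, adjusted p = 0.0255). Cyp51 demethylates lanosterol. On the siMyT1 arrays Cyp51 had 7.96, 8.17 and 8.38 units, on the siLSD1 arrays 9.77, 7.67 and 9.81 units and on the siControl arrays 10.7, 10.6 and 10.9 units. Again the siMyT1 arrays lay below siControl, at 76.1% of it (log2 fold change -0.39, SE 0.09, adjusted p = 0.0159). In a fit over all probe sets, another Cyp51 set was called lower (-0.48, limma adjusted p = 0.0492), and the dimmest was not (-0.06). The next brightest Fdft1 set was not called (-0.22, adjusted p = 0.156), nor were its dim sets. Both calls on the sets used depended on single arrays. The Fdft1 call was lost when siMyT1 replicate 1 or 2 or siControl replicate 2 or 3 was left out (adjusted p up to 0.114), the Cyp51 call for siMyT1 replicate 2 or siControl replicate 1 or 3 (adjusted p up to 0.0579), and both with the mean of all probe sets and without an intensity trend.

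Dhcr7 is the reductase of the last step to cholesterol. Its intensity was 2.95, 3.36 and 3.64 units in siMyT1, 6.56, 6.04 and 5.76 units in siLSD1 and 4.55, 5.17 and 4.77 units in siControl. The order siMyT1, siControl, siLSD1 held with no overlap between any groups. siMyT1 was at 68.6% of siControl (log2 fold change -0.52, SE 0.09, adjusted p = 0.00441), and the call held under all 16 alternatives. Among the 8 sterol enzymes not called, Hsd17b7, a keto-reductase, had a log2 fold change of -0.35, Msmo1, methylsterol monooxygenase, of -0.29, Lss, lanosterol synthase, of -0.26, Tm7sf2, a sterol reductase, of -0.23 and Sc5d, the sterol desaturase, of -0.20. Sqle, squalene epoxidase, was at -0.12 and Nsdhl, a decarboxylating dehydrogenase, at -0.04. Ebp, the sterol isomerase, was the exception in sign at 0.22, and its siMyT1 arrays lay above those of siControl. The smallest adjusted p among these 8 was 0.0862, that of Msmo1. Probe sets of Lss had the same sign here but differed in the size of the change and in the call. The brightest was the one used, and another gave 1.91 ± 0.20 units in siMyT1, 4.10 ± 0.11 in siLSD1 and 2.95 ± 0.51 in siControl (SD, n = 3 each). In a fit over all probe sets that one was called lower in siMyT1 than in siControl (log2 fold change -0.57, limma adjusted p = 0.0220), and Lss was called lower when probe sets with _s_at and _x_at suffixes, which the one used carries, were left out.

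Of 5 measured genes of sterol transport, 1 rose, against 5.12% of all genes. Npc2 carries cholesterol out of lysosomes. The Npc2 probe set gave 64.0, 64.1 and 71.2 units in siMyT1, 58.0, 52.1 and 56.5 units in siLSD1 and 52.2, 53.5 and 53.4 units in siControl. All siMyT1 arrays lay above the other groups (log2 fold change 0.32, SE 0.07, adjusted p = 0.0109). The call was lost after median centring (adjusted p = 0.170), with the mean of all probe sets, without an intensity trend and without siControl replicate 1 (adjusted p = 0.0560). Its second bright probe set gave 54.9 ± 0.58 units in siMyT1, 46.9 ± 2.8 in siLSD1 and 44.8 ± 0.90 in siControl (SD, n = 3 each), with an adjusted p of 0.0179 between siMyT1 and siControl over all probe sets. Npc1, its membrane partner, had a log2 fold change of -0.07 and Stard4, a sterol transfer protein, of -0.21. The other Stard4 probe sets were at 0.03 and -0.02. Abca1, which exports cholesterol, was at 0.13. Abcg1, another exporter, was dim on all arrays, with 0.117, 0.183 and 0.152 units on the siMyT1 arrays and 0.323, 0.321 and 0.219 units on the siControl arrays. At these levels, close to the pseudocount, its log2 fold change of -0.48 was not called (adjusted p = 0.112).

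Of 9 fatty acid enzymes, 1 fell in siMyT1, against 2.29% of all genes, and 0 rose. Elovl6 lengthens palmitate. Elovl6 measured 4.95, 5.88 and 6.01 units on the siMyT1 arrays, 9.01, 8.08 and 8.70 units on the siLSD1 arrays and 7.39, 6.83 and 6.82 units on the siControl arrays. siMyT1 lay below siControl on all arrays (log2 fold change -0.32, SE 0.08, adjusted p = 0.0356), a call lost in 9 of 16 alternatives, among them the runs without siMyT1 replicate 1 or 2 or any siControl replicate (adjusted p up to 0.141). Scd2, the main stearoyl-CoA desaturase of brain, came near the threshold at -0.21 (adjusted p = 0.0744). Acss2, which makes acetyl-CoA from acetate, had a log2 fold change of -0.23 and Fads2, a desaturase of polyunsaturated fatty acids, of -0.17. Fasn, fatty acid synthase, Acly, ATP citrate lyase, Acaca, acetyl-CoA carboxylase, and Fads1, the partner desaturase of Fads2, lay between -0.03 and 0.17. Scd1, a desaturase of liver and fat, measured no more than 0.183 units on any array, below the pseudocount, so its fold changes carry little information.

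**Figure D2:**
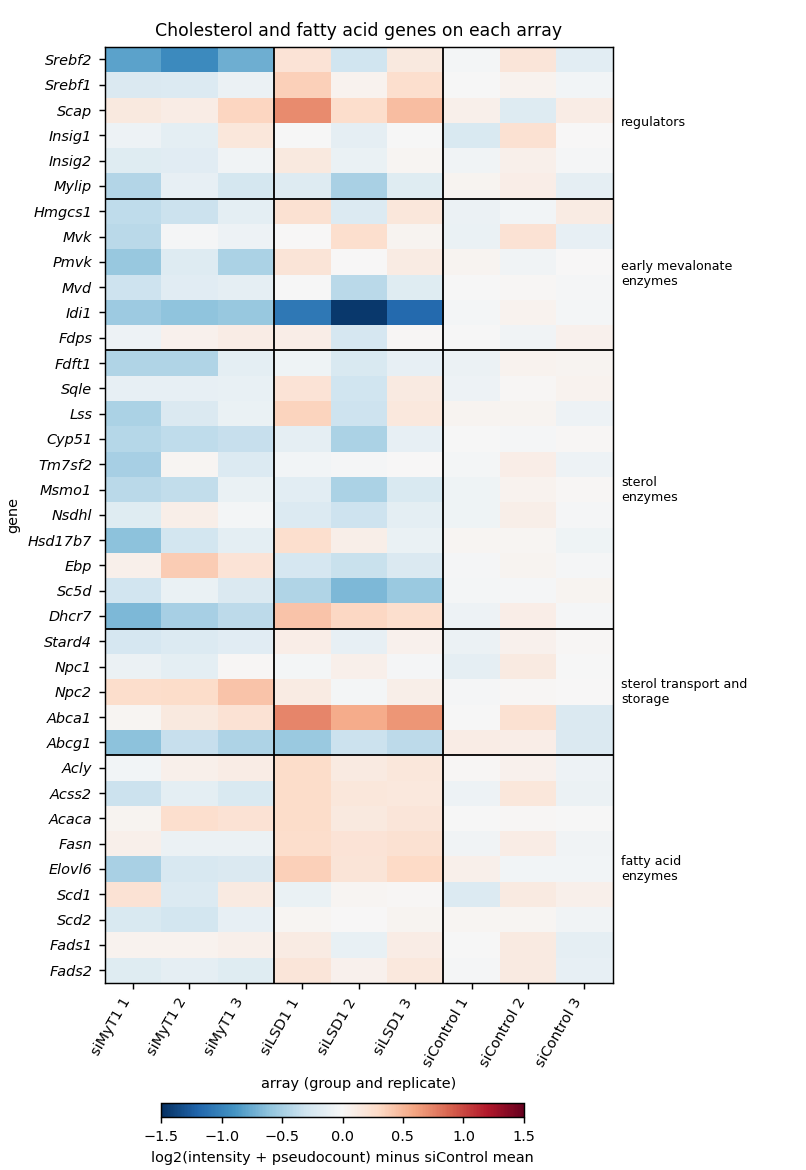
Log2(intensity + pseudocount) of the 37 genes on each of the 9 arrays, minus the siControl mean of the gene, with genes grouped by role (rows) and arrays by group and replicate (columns). Blue is lower and red is higher than the siControl mean. Srebf2 is blue on the 3 siMyT1 arrays, Idi1 is blue on all 6 knockdown arrays, and Dhcr7 is blue in siMyT1 and red in siLSD1.

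Promoter sequence was read from RefSeq windows of GRCm38.p6, 300 bases long, from 250 before to 50 after a gene's start, for 31 of the 40 genes, with 39 windows in all. Fdps, Fdft1, Sqle, Stard4, Npc1, Abcg1, Scd1, Scd2 and Fads1 were not matched. Each window was searched on both strands for a sterol response element (TCACNCCAC), the NF-Y box (CCAAT), the Sp1 box (GGGCGG) and the E-box (CACGTG), motifs of factors known to act with SREBPs or to be bound by them. The NF-Y box was in 24 of 31 genes (77.4%), against 42.0% of the 14452 genes on the array with a window and 41.1% of all 27025 genes. The Sp1 box was in 26 of 31 (83.9%), against 57.3% and 38.2%. The E-box was in 6 of 31 (19.4%), against 10.2% and 8.09%. This spelling of the sterol response element was in 1 of 31, that of Hmgcs1, against 1.46% and 1.44%. Of 122 matches in these genes, 0 overlapped a match of a different motif, and 2 NF-Y boxes of Fasn, on opposite strands, overlapped each other. Base composition was not matched, so these shares are a description.

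The windows of Srebf2, Idi1, Dhcr7 and Hmgcs1 are shown because the first 3 held their calls in siMyT1 under all alternatives and the Hmgcs1 window holds the sterol element. Capitals mark NF-Y boxes on either strand and the sterol response element. In Srebf2 (chr15:82147019-82147318, plus strand) the NF-Y box begins at -135 from the start. In Idi1 (chr13:8885356-8885655, plus strand) the 2 boxes begin at -45 and -14. Dhcr7 has 3 windows, and the one shown (chr7:143829964-143830263, plus strand) holds boxes at -85 and -49, while the other windows hold none. In Hmgcs1 (chr13:119690101-119690400, plus strand) the sterol element begins at -137, and the NF-Y boxes at -237, -176, -45 and 11. A match says only that these letters are present, and binding was not measured.
Srebf2: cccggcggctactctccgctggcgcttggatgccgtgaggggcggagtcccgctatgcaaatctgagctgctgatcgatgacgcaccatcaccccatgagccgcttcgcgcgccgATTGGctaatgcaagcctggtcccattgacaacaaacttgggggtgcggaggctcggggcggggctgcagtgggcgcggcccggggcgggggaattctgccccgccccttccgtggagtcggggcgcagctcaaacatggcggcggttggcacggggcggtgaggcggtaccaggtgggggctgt
Idi1: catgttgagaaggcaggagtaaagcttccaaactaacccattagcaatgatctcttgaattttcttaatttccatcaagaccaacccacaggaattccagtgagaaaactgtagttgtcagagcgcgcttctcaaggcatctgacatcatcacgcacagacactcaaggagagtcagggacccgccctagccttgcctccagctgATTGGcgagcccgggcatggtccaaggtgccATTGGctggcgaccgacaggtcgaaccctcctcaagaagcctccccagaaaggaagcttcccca
Dhcr7: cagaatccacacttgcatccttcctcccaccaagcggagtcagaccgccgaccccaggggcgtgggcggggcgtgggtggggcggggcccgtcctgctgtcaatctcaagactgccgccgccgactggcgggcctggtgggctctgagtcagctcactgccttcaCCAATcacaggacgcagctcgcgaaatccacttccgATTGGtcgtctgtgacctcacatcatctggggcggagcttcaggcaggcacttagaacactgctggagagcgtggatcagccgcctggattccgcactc
Hmgcs1: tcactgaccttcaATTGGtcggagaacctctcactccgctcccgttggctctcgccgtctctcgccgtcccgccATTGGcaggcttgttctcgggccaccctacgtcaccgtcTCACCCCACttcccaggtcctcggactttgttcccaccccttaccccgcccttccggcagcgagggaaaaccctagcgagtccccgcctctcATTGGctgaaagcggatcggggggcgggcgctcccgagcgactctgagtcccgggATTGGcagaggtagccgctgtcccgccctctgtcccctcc

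In siLSD1, genes of the set were called in both directions, and Dhcr7 was the only mevalonate or sterol enzyme called higher. Idi1 and Sc5d fell, and Scap, Dhcr7, Abca1, Fasn and Elovl6 rose. In count this was 2 of 37 genes lower (5.41%), against 4.93% of all genes, a share near the background, and 5 of 37 higher (13.5%), against 3.97% of all genes. The median log2 fold change of the 37 genes was 0.02, and that of all genes was -0.03. siLSD1 arrays lay below all siControl arrays for 8 of 37 genes, where 16.1% of all genes did so, and above them for 8 of 37, where 10.7% of all genes did so.

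The count of 5 higher genes moved with single arrays and settings. It was 1 without siLSD1 replicate 1, 2 without siControl replicate 1, siControl replicate 3 or siLSD1 replicate 3, and 3 without siControl replicate 2. In that order, the shares of all genes higher were 2.47%, 2.37%, 2.5%, 2.43% and 3.93%. The count was 10 after quantile normalization, which also brought the share of all genes higher to 7.83%. It was 3 with a larger pseudocount (3.8% of all genes) or the mean of all probe sets (2.5%), and 1 without an intensity trend (2.69%). siLSD1 replicate 2 was the lowest of its group for 29 of 37 genes, while it was the lowest for 49.1% of all genes, and siLSD1 replicate 1 was the highest for 26 of 37 and 48.9% of all genes. Without siLSD1 replicate 2, 4 genes were higher and 2 lower than in siControl, against 4.02% and 3.23% of all genes. Median centring gave 6.06% of all genes higher and 3.10% lower, with 6 and 2 of the 37.

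The decline of Idi1 after siLSD1 was the largest change among the probe sets used for the 37 genes in the 3 comparisons. Its 9 values are given above, and siLSD1 reached 41.7% of siControl (log2 fold change -1.23, SE 0.09, adjusted p = 3.38e-06). The call held under all 16 alternatives, with log2 fold changes from -1.31 to -1.12. Its neighbours in the pathway were not called. Mvd, the enzyme before it, had a log2 fold change of -0.20 (95% confidence interval -0.40 to 0.00) and Fdps, the enzyme after it, of -0.05 (-0.23 to 0.14). For Hmgcs1, Mvk and Pmvk the log2 fold changes were 0.07, 0.10 and 0.11.

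Sc5d introduces a double bond into the sterol ring late in the pathway. On the siMyT1 arrays Sc5d had 5.02, 5.71 and 5.27 units, on the siLSD1 arrays 4.44, 3.78 and 4.12 units and on the siControl arrays 6.02, 6.07 and 6.35 units. The siLSD1 arrays lay below all others, at 66.9% of siControl (log2 fold change -0.56, SE 0.08, adjusted p = 0.000613). Leaving out any single array kept the call, and the mean of its 3 probe sets did not (adjusted p = 0.0997). Dhcr7, in contrast, was at 127% of siControl (log2 fold change 0.33, SE 0.09, adjusted p = 0.0407), with its 9 values above showing no overlap, but that call was lost without siControl replicate 1 or 3 or any siLSD1 replicate (adjusted p up to 0.165), and without an intensity trend. Ebp was at -0.27 (adjusted p = 0.0565), Msmo1 at -0.29, Cyp51 at -0.25 and Nsdhl at -0.22, each with siLSD1 arrays below siControl and none called. Fdft1, Sqle, Lss, Tm7sf2 and Hsd17b7 lay between -0.14 and 0.08. For Lss this is the brightest probe set. The other one described above was called higher in siLSD1 (log2 fold change 0.46, limma adjusted p = 0.0426 over all probe sets).

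Scap was the regulator that rose. Its intensity was 16.6, 16.1 and 18.8 units in siMyT1, 24.6, 18.0 and 20.7 units in siLSD1 and 15.8, 13.1 and 16.2 units in siControl. All siLSD1 arrays lay above those of siControl, and siMyT1 overlapped both (log2 fold change 0.48, SE 0.11, adjusted p = 0.0144 for siLSD1 against siControl). The call was lost without siControl replicate 2 or siLSD1 replicate 1 (adjusted p up to 0.0617), without an intensity trend, and with the mean of its probe sets, of which the other was dim. For Srebf2 the arrays of siLSD1 and siControl overlapped (log2 fold change 0.02, 95% confidence interval -0.25 to 0.28). Srebf1 had a log2 fold change of 0.22 (adjusted p = 0.0943) with arrays above siControl. Insig1 and Insig2 were at -0.05 and 0.02, and Mylip at -0.28.

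Abca1 is switched on by liver X receptors. The Abca1 probe set gave 4.13, 4.50 and 4.76 units in siMyT1, 6.90, 6.06 and 6.53 units in siLSD1 and 4.03, 4.79 and 3.45 units in siControl. The siLSD1 arrays lay above all others, at 159% of siControl (log2 fold change 0.65, SE 0.11, adjusted p = 0.00168). The call held under all 16 alternatives, although neither of its 2 dimmer probe sets was called in a fit over all probe sets (log2 fold changes 0.38 and 0.40). Abcg1 and Mylip, also known as targets of these receptors, were at -0.42 and -0.28 and were not called. Npc1, Npc2 and Stard4 lay between 0.01 and 0.06. A dim probe set of Npc2, at 1.65 ± 0.26 units in siLSD1 and 0.963 ± 0.093 units in siControl (SD, n = 3 each), was called higher (log2 fold change 0.67, limma adjusted p = 0.0196 over all probe sets).

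Among 9 fatty acid enzymes, 2 rose after siLSD1, against 3.97% of all genes. Of the 9 log2 fold changes, 8 were above 0, where the median of all genes was -0.03. Fasn builds palmitate. Fasn measured 33.9, 30.2 and 30.2 units on the siMyT1 arrays, 38.6, 37.1 and 37.8 units on the siLSD1 arrays and 30.9, 34.8 and 30.9 units on the siControl arrays. siLSD1 arrays lay above the other groups (log2 fold change 0.23, SE 0.07, adjusted p = 0.0490). Elovl6 was at 123% of siControl (log2 fold change 0.29, SE 0.08, adjusted p = 0.0477). Both calls lay just inside the threshold, and the first was lost in 12 and the second in 9 of 16 alternatives. For Fasn these included the runs without siControl replicate 1 or 3 or any siLSD1 replicate (adjusted p up to 0.196), and for Elovl6 those without any siControl replicate, siLSD1 replicate 1 or siLSD1 replicate 3 (adjusted p up to 0.154). Acaca at 0.20, Acly at 0.19 and Acss2 at 0.20 were similar in size and not called. Fads2, Fads1 and Scd2 were at 0.13, 0.04 and 0.03.

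**Figure D3:**
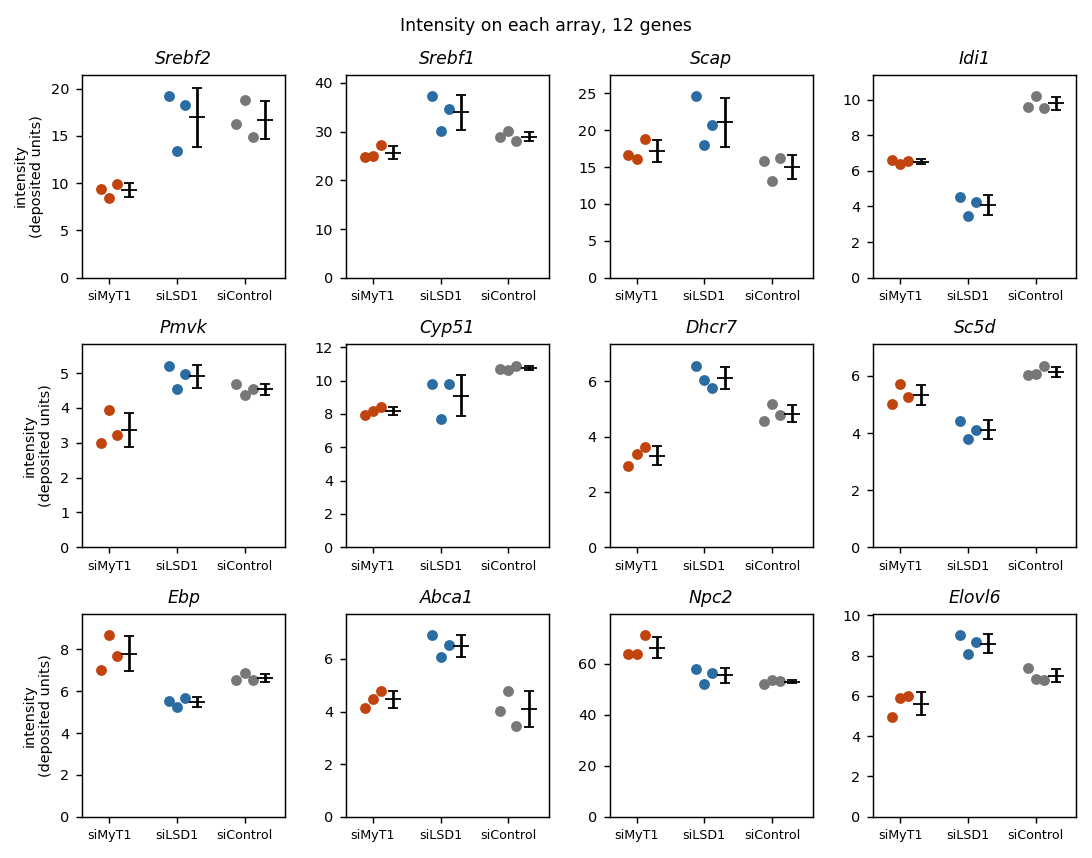
Deposited intensity (vertical axes, linear from 0) of 12 genes on each array, by group, with the mean and SD of the 3 arrays as a bar beside the points. The siMyT1 points of Srebf2 lie at 8.48 to 9.91 units, below all siLSD1 and siControl points, and Idi1 separates into 3 levels with siLSD1 the lowest at 3.46 to 4.54 units.

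The direct comparison tests whether the siRNAs differed from each other, and the control arrays enter it only through the shared estimate of spread. Srebf2, Srebf1, Hmgcs1, Pmvk, Hsd17b7, Dhcr7, Abca1, Acss2, Fasn, Elovl6, Scd2 and Fads2 had lower intensity in siMyT1 than in siLSD1, and Idi1, Ebp, Sc5d and Npc2 were higher. That is 12 of 37 genes lower (32.4%), against 5.58% of all genes, and 4 of 37 higher (10.8%), against 13.2% of all genes. The median log2 difference was -0.16 for the 37 genes and 0.09 for all genes. siMyT1 arrays lay below all siLSD1 arrays for 14 of 37 genes, where 9.70% of all genes did so, and above them for 4 of 37, where 23.3% of all genes did so. Median centring left 6.86% of all genes higher and 9.32% lower in siMyT1. It moved the median difference of all genes to -0.04 and that of the 37 genes to -0.28, with 13 lower and 2 higher. With the mean of all probe sets, 7 were lower and 2 higher, against 4.07% and 9.82% of all genes. When 1 array was left out, 8 to 16 were lower (3.88% to 5.33% of all genes) and 3 to 4 higher (8.38% to 15.9%). Over all 16 alternatives the ranges were 7 to 18 lower and 2 to 4 higher.

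Both SREBP genes were lower in siMyT1. Srebf2 stood at 54.6% of its siLSD1 level (log2 fold change -0.85, SE 0.12, adjusted p = 0.000375). For Srebf1 the values were as follows. On the siMyT1 arrays Srebf1 had 24.8, 25.0 and 27.3 units, on the siLSD1 arrays 37.3, 30.2 and 34.6 units and on the siControl arrays 28.8, 30.0 and 28.1 units. All siMyT1 arrays lay below both other groups, and the difference from siLSD1 was called (log2 fold change -0.40, SE 0.08, adjusted p = 0.00261) and held under all 16 alternatives. Scap at -0.29, Insig2 at -0.16, Insig1 at 0.03 and Mylip at 0.01 were not called.

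Of the 17 mevalonate and sterol enzymes measured, 4 were lower in siMyT1 compared with siLSD1, against 5.58% of all genes. Another 3 were higher, against 13.2% of all genes. Dhcr7, with Srebf2, showed the largest difference among the probe sets used for the 37 genes, at 54.2% of siLSD1 (log2 fold change -0.85, SE 0.09, adjusted p = 3.92e-05). Pmvk was at 68.8% (log2 fold change -0.52, SE 0.10, adjusted p = 0.00255). Both calls held under all 16 alternatives. Hmgcs1 measured 23.2, 17.1 and 22.2 units on the siLSD1 arrays, which overlapped with siMyT1 (log2 fold change -0.35, SE 0.11, adjusted p = 0.0344). The other Hmgcs1 probe sets called lower against siControl were called lower here too (-0.51 and -0.42, limma adjusted p = 0.00206 and 0.00140 over all probe sets). Its remaining probe sets were not called. Hsd17b7 reduces the keto group of the sterol ring. Its intensity was 1.59, 2.08 and 2.28 units in siMyT1, 3.07, 2.72 and 2.38 units in siLSD1 and 2.62, 2.62 and 2.43 units in siControl. Its siMyT1 arrays lay below those of siLSD1 (log2 fold change -0.43, SE 0.13, adjusted p = 0.0411). The Hmgcs1 call was lost without siMyT1 replicate 1 or 2 or siLSD1 replicate 1 or 3 (adjusted p up to 0.130), the Hsd17b7 call without siMyT1 replicate 1 or 2 or siLSD1 replicate 1 or 2 (adjusted p up to 0.155), and both without an intensity trend. That of Hsd17b7 was also lost with the mean of all probe sets (adjusted p = 0.401).

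The enzymes that were higher in siMyT1 were Idi1, Ebp and Sc5d. Idi1 was at 160% of siLSD1 (log2 fold change 0.66, SE 0.09, adjusted p = 0.000223) and Sc5d at 130% (log2 fold change 0.36, SE 0.08, adjusted p = 0.00689), and both had been lower in siLSD1 than in siControl. Ebp shifts a double bond in the sterol ring. The Ebp probe set gave 7.03, 8.67 and 7.70 units in siMyT1, 5.55, 5.24 and 5.69 units in siLSD1 and 6.53, 6.86 and 6.53 units in siControl. The groups did not overlap, with siMyT1 highest and siLSD1 lowest, and the difference between the siRNAs was called (log2 fold change 0.49, SE 0.08, adjusted p = 0.000901) where neither difference from siControl was. The Idi1 and Ebp calls held under all 16 alternatives, and that of Sc5d was lost after median centring (adjusted p = 0.0925) and with the mean of its probe sets (adjusted p = 0.479).

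Of the 9 fatty acid enzymes, 5 were lower in siMyT1 compared with siLSD1, against 5.58% of all genes, and 0 were higher. Elovl6 differed most (log2 fold change -0.60, SE 0.08, adjusted p = 0.000256). Acss2 was next. Acss2 measured 4.61, 5.23 and 4.91 units on the siMyT1 arrays, 7.07, 6.55 and 6.52 units on the siLSD1 arrays and 5.49, 6.55 and 5.47 units on the siControl arrays. siMyT1 arrays lay below siLSD1 arrays (log2 fold change -0.43, SE 0.08, adjusted p = 0.00297). On the siMyT1 arrays Fads2 had 7.32, 7.57 and 7.31 units, on the siLSD1 arrays 9.51, 8.71 and 9.34 units and on the siControl arrays 8.26, 9.18 and 7.67 units. For Fads2 the siMyT1 arrays lay below both other groups (log2 fold change -0.30, SE 0.07, adjusted p = 0.0106). The Scd2 probe set gave 90.0, 86.6 and 96.6 units in siMyT1, 108, 106 and 108 units in siLSD1 and 107, 108 and 101 units in siControl. The siMyT1 arrays of Scd2, too, lay below the others (log2 fold change -0.24, SE 0.07, adjusted p = 0.0226), and Fasn had a log2 difference of -0.27 (adjusted p = 0.0140). With the mean of all probe sets of a gene, the calls of Elovl6 (adjusted p = 0.0618), Acss2 (0.0825), Scd2 (0.167) and Fads2 (0.413) were lost. Over all probe sets, limma called other sets lower for Elovl6 (-0.50, adjusted p = 0.00482), Acss2 (-0.42, adjusted p = 0.0486) and Scd2 (-0.33, adjusted p = 0.0443). The remaining sets of these genes were not called. Another Fads2 probe set, at 6.12 ± 0.54 units in siMyT1 and 5.80 ± 0.62 in siLSD1 (SD, n = 3 each), had the opposite sign (0.08, adjusted p = 0.687). Against siControl it was at 0.26 and not called. The Scd2 call was also lost after median centring (adjusted p = 0.0557) and without siMyT1 replicate 1 or 2 or siLSD1 replicate 3 (adjusted p up to 0.117), and the Fasn call without siMyT1 replicate 2 or 3 or siLSD1 replicate 3 (adjusted p up to 0.0683), and both without an intensity trend. Acly, Acaca, Fads1 and Scd1 lay between -0.14 and 0.07 and were not called.

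In transport, Abca1 was lower in siMyT1 than in siLSD1 (log2 fold change -0.52, SE 0.11, adjusted p = 0.00411) and Npc2 higher (log2 fold change 0.26, SE 0.07, adjusted p = 0.0152). The Npc2 call was lost after median centring (adjusted p = 0.503), without an intensity trend (adjusted p = 0.0621), without siMyT1 replicate 3 (adjusted p = 0.0586) and without siLSD1 replicate 2 (adjusted p = 0.0522). Its sign turned, to -0.04, with the mean of its 4 probe sets, 2 of which are dim. The Abca1 call was lost only with that mean (adjusted p = 0.0945). Stard4 stayed just outside the threshold at -0.23 (adjusted p = 0.0559). Its other probe sets had the opposite sign, at 0.08 and 0.11 (limma adjusted p = 0.628 and 0.798 over all probe sets). The brighter of those gave 5.36 units in siMyT1 and 5.05 in siLSD1.

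**Figure D4:**
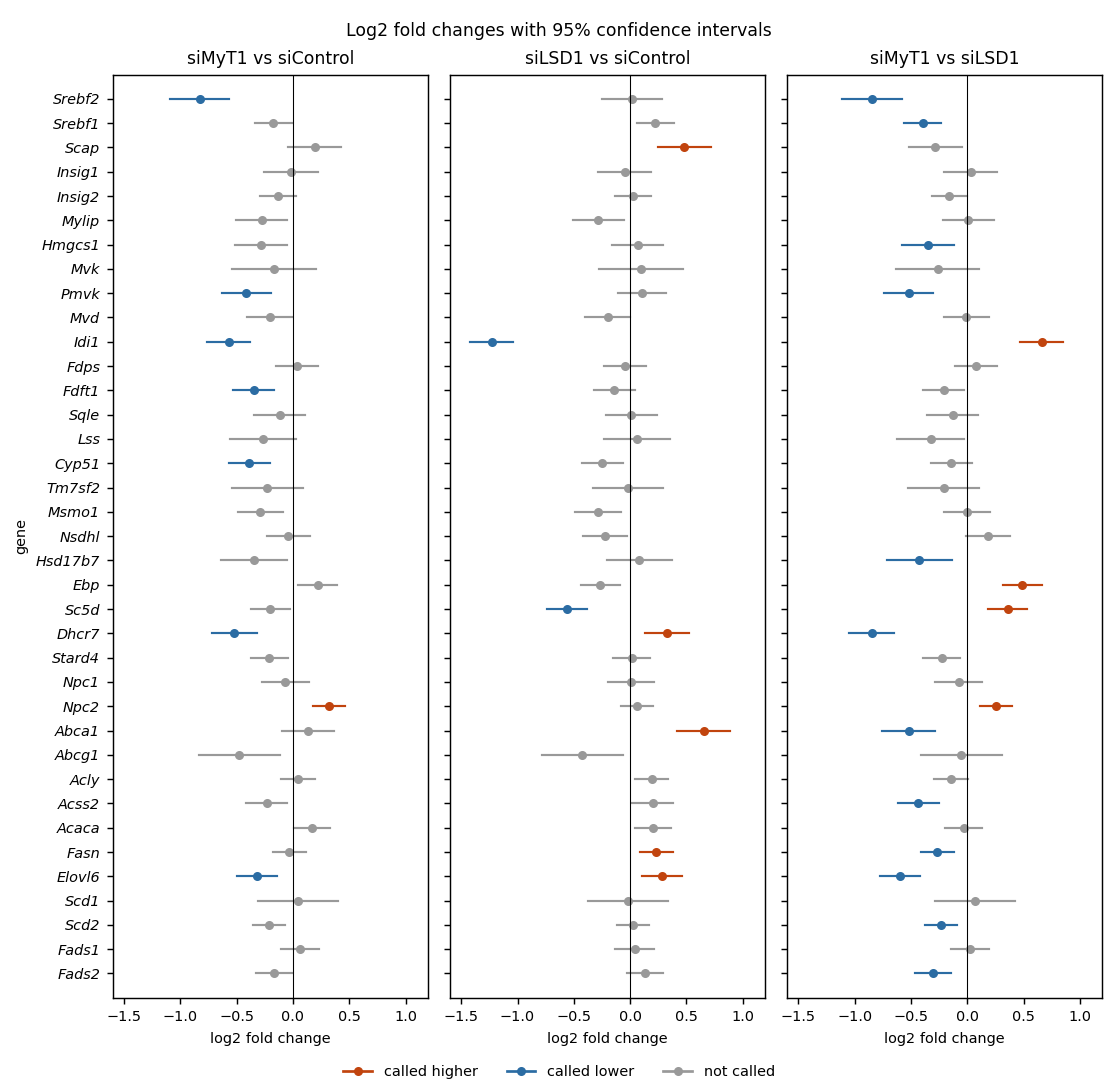
Log2 fold change (points) with 95% confidence interval (lines) of the 37 genes for the siMyT1 minus siControl, siLSD1 minus siControl and siMyT1 minus siLSD1 differences, coloured by call. Idi1 lies at -0.57, -1.23 and 0.66 in the 3 panels, and Dhcr7 at -0.52, 0.33 and -0.85.

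Set side by side, 19 of the 37 genes were called in at least 1 comparison and 18 in none. Idi1 was lower after both siRNAs. Dhcr7 and Elovl6 were lower in siMyT1 and higher in siLSD1, each with a called difference between the siRNAs. The siLSD1 calls were lost in 7 of 16 alternatives for Dhcr7 and in 9 for Elovl6. The siMyT1 call of Elovl6 was lost in 9 too. Both contrasts with siControl share its arrays, so their values are not independent. Srebf1, Hmgcs1, Hsd17b7, Acss2, Scd2, Fads2 and Ebp were called only between the siRNAs. The 18 genes called in none were Insig1, Insig2, Mylip, Mvk, Mvd, Fdps, Sqle, Lss, Tm7sf2, Msmo1, Nsdhl, Stard4, Npc1, Abcg1, Acly, Acaca, Scd1 and Fads1. That holds for the brightest probe set of each. The other Lss probe set passed in all 3 comparisons, and between the siRNAs it was lower in siMyT1 (log2 fold change -1.04, limma adjusted p = 0.000206), and one of Acly was lower in siMyT1 than in siLSD1 (-0.24, adjusted p = 0.0189). Between the siRNAs, Lss was also called after median centring, after quantile normalization, with the mean of all probe sets, among genes above the median level, and without siLSD1 replicate 2. Quantile normalization called 14 of the 29 genes not called in siMyT1 against siControl, where 6% of all genes were lower and 7.52% higher. It called 8 of 30 in siLSD1 (7.58% lower, 7.83% higher) and 6 of 21 between the siRNAs (10.6% and 13.3%). Among genes above the median level, Mylip and Msmo1 were called against siControl in both knockdowns, and Stard4 between the siRNAs. Acaca was called in siLSD1 after median centring. Other probe sets exist for 26 of the 37 genes, 49 in all. For called genes, 11 of 12 other probe sets had the sign of the call for siMyT1 against siControl, 7 of 8 did so for siLSD1, and 19 of 24 between the siRNAs, and 0 were called in the opposite direction.

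A list of 70 further genes of these pathways, 63 of them measured, was chosen by symbol in the same way. Against siControl, 2 of 63 were lower (3.17%, against 2.29% of all genes) and 6 higher (9.52%, against 5.12%), with a median log2 fold change of 0.06, near the 0.05 of all genes. Mbtps1, the Golgi protease that makes the first cut in SREBPs, was lower (20.0 units in siMyT1, 24.3 in siControl, log2 fold change -0.27, adjusted p = 0.0428), as was Hmgcll1, a lyase of HMG-CoA (0.644 units in siMyT1, 1.40 in siControl, log2 fold change -0.93, adjusted p = 0.00551). The rises with the smallest p-values were those of Elovl7, an elongase (12.5 units in siMyT1, 8.73 in siControl, log2 fold change 0.51, adjusted p = 0.000835), Dgat2, which makes triglyceride (11.2 units in siMyT1, 8.09 in siControl, log2 fold change 0.46, adjusted p = 0.000896), Fads3, a desaturase (15.9 units in siMyT1, 12.3 in siControl, log2 fold change 0.36, adjusted p = 0.00888), and Acsl4, which activates arachidonate (16.3 units in siMyT1, 13.02 in siControl, log2 fold change 0.33, adjusted p = 0.0278). The 6 higher genes were 3 without siMyT1 replicate 2, siMyT1 replicate 3 or siControl replicate 1, and 2 after median centring. In that order, 2.33%, 2.42%, 2.4% and 3.64% of all genes were higher. The 2 lower genes became 1 when any of the 6 arrays other than siMyT1 replicate 3 was left out. In those runs 1.18% to 1.72% of all genes were lower.

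In siLSD1 against siControl, 3 of the 63 were lower (4.76%, near the 4.93% of all genes) and 5 higher (7.94%, against 3.97% of all genes). Acsl4 rose most (23.8 units in siLSD1, 13.02 in siControl, log2 fold change 0.86, adjusted p = 2.22e-05), followed in p-value by Elovl7 (12.6 units in siLSD1, 8.73 in siControl, log2 fold change 0.52, adjusted p = 0.000371), Gramd1b, a sterol carrier at membrane contacts (3.91 units in siLSD1, 2.56 in siControl, log2 fold change 0.58, adjusted p = 0.00472), and Elovl1, an elongase of saturated chains (11.2 units in siLSD1, 8.78 in siControl, log2 fold change 0.35, adjusted p = 0.0235). Lbr, which holds the same reductase activity as Tm7sf2, fell (18.2 units in siLSD1, 23.2 in siControl, log2 fold change -0.35, adjusted p = 0.000961), as did Gramd1a, a relative of Gramd1b (7.07 units in siLSD1, 9.28 in siControl, log2 fold change -0.38, adjusted p = 0.00289), and Elovl4, an elongase of very long chains (5.16 units in siLSD1, 7.50 in siControl, log2 fold change -0.52, adjusted p = 0.00641). Between the siRNAs, 7 of 63 were lower in siMyT1 (11.1%, against 5.58% of all genes) and 12 higher (19.0%, against 13.2% of all genes). The lower ones included Acsl4 (16.3 units in siMyT1, 23.8 in siLSD1, log2 fold change -0.54, adjusted p = 0.000491), Ggps1, which makes geranylgeranyl diphosphate (4.58 units in siMyT1, 6.37 in siLSD1, log2 fold change -0.46, adjusted p = 0.000901), Hmgcll1 (0.644 units in siMyT1, 1.28 in siLSD1, log2 fold change -0.82, adjusted p = 0.00400) and Erlin2, a protein of sterol-regulated degradation (6.33 units in siMyT1, 9.15 in siLSD1, log2 fold change -0.51, adjusted p = 0.00412). The higher ones included Lbr (24.5 units in siMyT1, 18.2 in siLSD1, log2 fold change 0.43, adjusted p = 0.000123), Fads3 (15.9 units in siMyT1, 11.5 in siLSD1, log2 fold change 0.45, adjusted p = 0.000696), Dgat2 (11.2 units in siMyT1, 8.56 in siLSD1, log2 fold change 0.39, adjusted p = 0.00105) and Cyp27a1, a sterol hydroxylase (0.511 units in siMyT1, 0.137 in siLSD1, adjusted p = 0.00626). Its siLSD1 level lies below the pseudocount, so no size of that difference is given. The 5 genes higher in siLSD1 were 3 without siLSD1 replicate 3 (2.43% of all genes higher) or siControl replicate 1 (2.37%). Between the siRNAs, the 12 higher genes were 7 without siMyT1 replicate 3 (8.64% of all genes higher). They were 6 without siLSD1 replicate 2 (8.93%) and 4 after median centring (6.86%). The 7 lower genes were 4 without siLSD1 replicate 1 (4% of all genes lower) or 3 (3.88%).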

How the data were processed

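Expression was measured on 9 one-colour arrays with biotin-labelled total RNA, per the labels' protocols. The authors deposited intensities on a linear scale for 45101 probe sets, and their summarisation, background correction and scaling were not stated in any source used here. Probe sets were named from GEO's platform annotation (35890 listed, 34945 with 1 symbol and 932 with several), with symbols checked through 34741 Entrez matches to RefSeq GRCm38.p6. Each gene took its probe set with the highest mean. Values were scaled by 1 constant to a mean intensity, trimmed by 2% at each end, of 500, 32 was added, and log2 was taken.

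Groups were compared with limma 3.58.1 in R 4.3.3 (3 group means, intensity trend, two-sided, Benjamini-Hochberg over 18193 genes), with 6 residual and 6.84 prior degrees of freedom. An exact permutation test of 3 arrays against 3 cannot go below p = 0.1. The fit was tested on simulated data. Samples were grouped by title. The genes and lists were chosen with earlier results of these data known, and the rule named every gene of the set, both siRNA targets, and up to 4 further pathway genes per comparison and direction by smallest adjusted p. Alternatives covered normalization, pseudocounts of 1 and 100, a filter, probe sets, samples, variance model, block and single arrays. The number of arrays limits the precision.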

Additional observations from a re-analysis of the deposited data

How the results depend on the processing

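Over 16 alternatives for each of 35 results on single genes, siRNA targets included, 461 of 560 values kept the call, 98 kept the direction but lost it and 1 turned, the difference of Npc2 between siMyT1 and siLSD1 with the mean of all probe sets (-0.0392). The cause of that turn was not tested. The 7 genes lower in siMyT1 than in siControl were 20 after quantile normalization (6% of all genes lower). Among genes above the median level (fewer genes tested) they were 12 (6.55% of those genes). They were 4 with the mean of all probe sets (1.34% of all genes) and 3 without an intensity trend (1.11%). When 1 array was left out they were 3 to 7 (1.18% to 1.72%). The 1 higher gene became 2 after quantile normalization (7.52% of all genes higher). It became 0 after median centring (3.64%), with the mean of all probe sets (3.4%) and without an intensity trend (3.09%). When 1 array was left out, 0 to 2 were higher (2.33% to 6.45% of all genes). The 5 genes higher in siLSD1 than in siControl became 10 after quantile normalization (7.83% of all genes higher). They were 3 with a pseudocount of 100 (3.8%) or the mean of all probe sets (2.5%). Without an intensity trend 1 was higher (2.69%), and without 1 array 1 to 4 were (2.37% to 4.02%). The 2 lower genes became 5 after quantile normalization (7.58% of all genes lower) and 6 among genes above the median level (13.8% of those genes). With the mean of all probe sets 1 was lower (3.43%). The 4 genes higher in siMyT1 than in siLSD1 became 2 after median centring (6.86% of all genes higher) and with the mean of all probe sets (9.82%). The 12 lower genes became 7 with that mean (4.07% of all genes lower). They were 8 to 16 when 1 array was left out (3.88% to 5.33%), and 7 to 18 over all alternatives. The titles do not say whether same-numbered arrays were handled together. Their deviations from the group means had correlations from -0.0264 to 0.0380, which cannot settle that. With the replicate number as a block, 5 were lower and 1 higher in siMyT1 against siControl (1.57% and 3.57% of all genes). In siLSD1 against siControl 2 were lower and 2 higher (3.81% and 3.11%). Between the siRNAs 11 were lower and 4 higher (4.82% and 11.3%). Other than as stated, the cause of these moves was not tested. Calls on dim probe sets near the pseudocount are limited by signal.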
